A study of Mus musculus with 6 samples.

Results

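The EGR, NR4A and IER immediate early genes are a set of serum-inducible genes outside the AP-1 family, and 10 of them were taken by gene symbol from the 55401 genes of each table: Egr1, Egr2, Egr3, Nr4a1, Nr4a2, Nr4a3, Ier2, Ier3, Ier5 and Btg2. The readout was newly made RNA, captured with Click-iT chemistry from iMEF cells, a line of immortalised mouse embryo fibroblasts. Labelling with an ethynyl nucleoside marks the RNA made during a short time window, and the marked RNA is then biotinylated, captured and sequenced. The study asks how soon transcription responds when ASH2L, a core subunit of the KMT2 methyltransferases of lysine 4 in histone H3, is removed from the cell. The samples formed 3 groups of 2: cells without dTAG-13 ("untreated"), a 4 h dTAG-13 group and an 8 h dTAG-13 group. Per the methods of the study the nucleoside was given for 2 h around the named time, so that a group stands for a window and not for a moment. In all 3 groups, controls included, the cells lacked their own functional Ash2l and lived on human ASH2L with an FKBP12F36V degradation tag, brought in with a lentiviral construct, and the study worked mainly with a single clone of such cells. dTAG-13 bridges this tag to a ubiquitin ligase, so that the protein is degraded while its gene stays in place.

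Immediate early genes are silent or low in resting cells and are transcribed within minutes of a growth factor, stress or calcium signal without the need for new protein. At many of them growth factor kinases act through SRF and its ternary complex factor partners, or through CREB bound to cAMP response elements, and a poised RNA polymerase is released. Their products are mostly transcription factors, and their RNAs are short-lived. The RNA labelled over 2 h therefore reflects both its making and its decay within that window, and is not a rate of transcription alone.

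The deposited tables hold 1 mean per gene and comparison, and the value of each library was rebuilt from these means. A normalised value below is the whole number rebuilt for a library, divided by that library's median-of-ratios factor over the 6 libraries. The rebuilt numbers were not treated as read counts, since in some libraries they have gaps, and the files used here give no read total for a sample. Their sums were 7141301 and 10075431 in untreated cells, 11770085 and 17062548 at 4 h, and 16852553 and 23990942 at 8 h, so the sums ran with the groups. The groups of the libraries are known but their replicate numbers are not, and nothing in the labels ties the samples to separate cultures. The tests therefore see the spread between the libraries at hand, which may be technical. The fibroblast markers were all present, 9 of 9, and their sum over the 5 markers with a mean under 10000 lay between 21006 and 23455 in all libraries. Endothelial markers were present too, 3 of 3, with a sum between 8787 and 10235, of which Pecam1 and Cdh5 made up most. The epithelial markers, 4 of 4 present, summed to between 1140 and 1475, and the blood markers, 3 of 3 present, to between 71.5 and 158.9. Of the muscle markers Myod1 and Myog were listed at 0. Of the neural markers Sox10 was listed at 0, while the sum of the other 2, nearly all of it Tubb3, was 289.1 and 484.6 in untreated cells, between 218.3 and 278.7 at 4 h and between 193.1 and 199.5 at 8 h, lower in every treated library than in both untreated ones, and its part in the results was not tested. RNA of the inactivated mouse Ash2l gene, which does not encode the tagged human protein that dTAG-13 targets and so does not check the treatment, stood at 729 and 921 in untreated cells, 947 and 1118 at 4 h, and 1219 and 949 at 8 h.

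None of the early genes passed the test at either time on values scaled by median-of-ratios factors, whereas 5 of 9 early genes and 6026 of 14971 genes were called at 8 h against untreated cells on the rebuilt numbers with no further scaling. Egr2 was listed at a mean of 0 in both tables, and the other 9 passed the filter of a mean of 10. At 4 h against untreated cells 0 of 9 were called by limma-trend at an adjusted p of 0.05, and 0 of all 14453 genes tested were called in either direction, a background of 0%. At an unadjusted p of 0.05 the numbers were 1 of 9 early genes and 519 of 14453 genes. The 8 h comparison with untreated cells called 0 of 9 early genes and 0 of 14971 genes, and an unadjusted p under 0.05 was found for 0 early genes and 678 genes. Between 8 h and 4 h the test called 0 of 9 early genes and 0 of 15049 genes, with 0 early genes and 672 genes under an unadjusted p of 0.05. A second limma fit with voom weights also called 0 genes in each comparison. In these bulk samples fewer cells making an RNA and less of it per cell cannot be told apart.

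The early genes lay on both sides of 0 in each comparison. At 4 h against untreated cells 6 of 9 differences were positive and 3 negative. Their median was 0.21 on the log2 scale, beside a median of -0.0032 for all genes tested. For the 7 early genes tested with a minimum mean of 100 this median was 0.02, beside -0.0023 for all such genes. With 1 library left out the median of the 9 lay between -0.05 and 0.43. In the 8 h comparison with untreated cells 4 were positive and 5 negative, with a median of -0.0034 beside 0.0067 for all genes. Between 8 h and 4 h 3 were positive and 6 negative, with a median of -0.13 beside 0.0043. The untreated libraries enter both of the first comparisons, which are therefore not independent. These signs are those after median-of-ratios scaling of each library, and all 14 negative ones turned positive without that scaling.

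**Figure D1:**
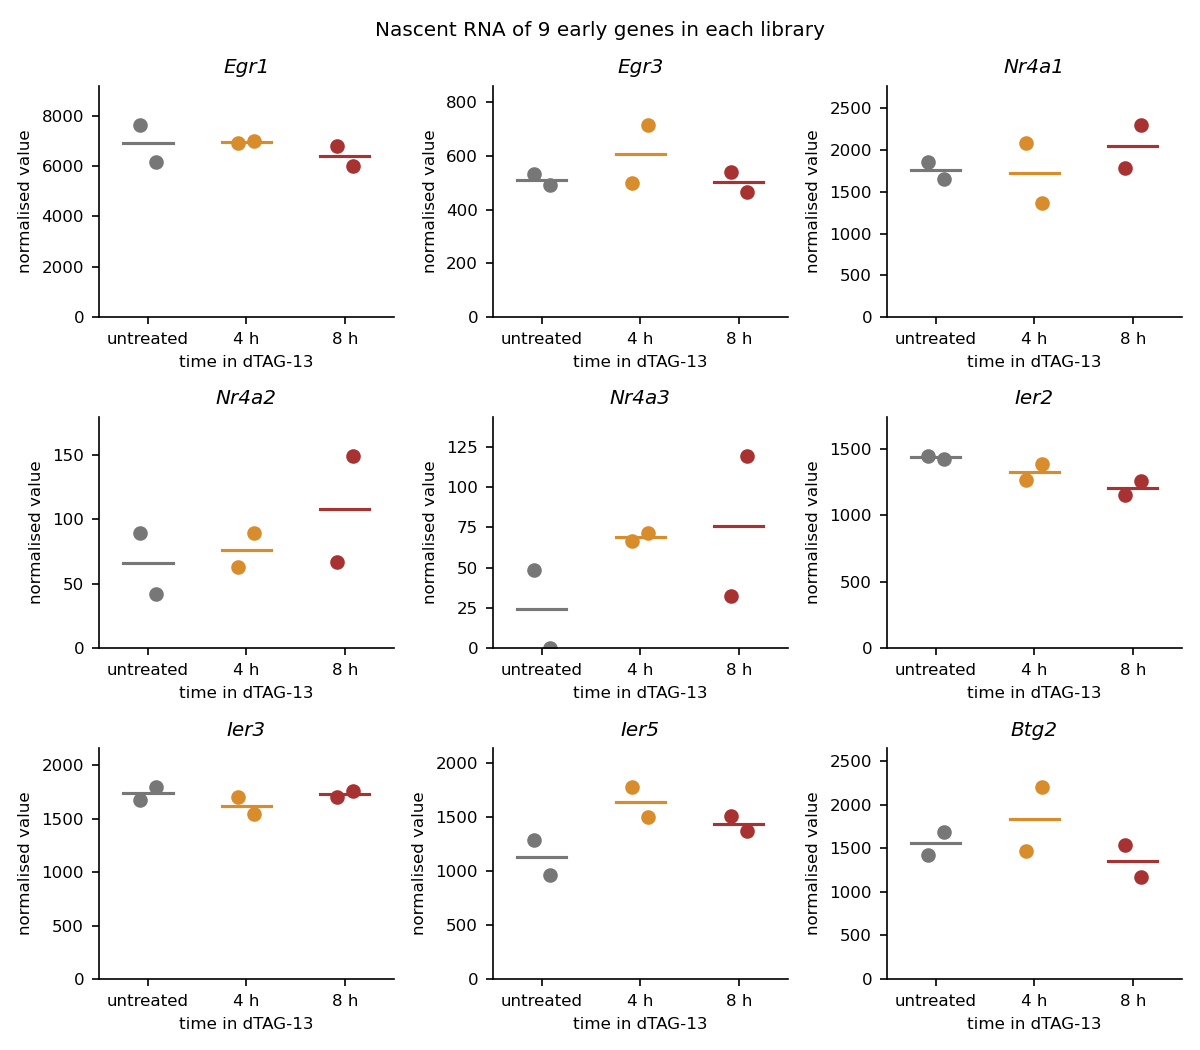
Normalised value (vertical axis, from 0) of the 9 detected early genes in untreated cells and after 4 h and 8 h of dTAG-13 (horizontal axis); points are single libraries and bars are the mean of 2. Ier5 is the gene whose 4 h and 8 h libraries all lie above both untreated libraries, Ier2 the one whose treated libraries all lie below, and the groups of most others overlap.

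The EGR genes encode zinc finger transcription factors that bind GC-rich promoter sequences, and Egr1 was the highest of all the early genes. Egr1 (chromosome 18, 34859823 to 34864984, plus strand, mm10) had normalised values of 7642 and 6145 in untreated cells, 6890 and 7002 at 4 h, and 6788 and 5994 at 8 h. Both 4 h values lay between the untreated ones. By RT-qPCR the study reports an early rise of Egr1 mRNA after dTAG-13, at a time before the windows labelled here. These libraries cannot show a response that ended before the labelling. The difference at 4 h against untreated cells was 0.02 on the log2 scale (SE 0.11), with a 95% interval of -0.24 to 0.28, which corresponds to 0.846-fold to 1.21-fold. The 8 h difference from untreated cells was -0.10 (SE 0.12, interval -0.39 to 0.18). Both 8 h libraries lay below both 4 h libraries, with a difference of -0.12 (SE 0.11) and an adjusted p of 0.96 in limma. The 2 untreated libraries themselves differed by 0.31 on the log2 scale, more than any of these group differences.

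Egr3 (chromosome 14, 70077203 to 70082614, plus strand) encodes a close relative that is known for roles in muscle spindles and lymphocytes. It had normalised values of 533 and 491 in untreated cells, 499 and 718 at 4 h, and 542 and 465 at 8 h. A single 4 h library stood above all others, and the groups overlapped in each comparison. Its difference was 0.22 (SE 0.28) at 4 h and -0.03 (SE 0.25) at 8 h against untreated cells, and the intervals reached from -0.41 to 0.86 and from -0.60 to 0.55. Egr2 (chromosome 10, 67535475 to 67542188, plus strand), a regulator of Schwann cell myelination and hindbrain patterning, was listed at 0 in untreated cells as well as at 4 h and 8 h.

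The NR4A genes encode orphan nuclear receptors that bind DNA without a known physiological ligand, and their promoters carry clusters of cAMP response element half-sites. The upstream bases of 3 of them are shown because they hold the letters that CREB factors recognise. They come from the RefSeq promoter table (GRCm38.p6, which is mm10), 5′ to 3′ in the direction of the gene, with the half-sites TGACG and CGTCA (the same motif on either strand) in capitals. For Nr4a1 and Nr4a2 the 250 bases before the RefSeq start are given, at chr15:101266596-101266845 on the plus strand and chr2:57124004-57124253 on the minus strand. The Nr4a1 window lies inside the GENCODE span of the gene, 101254269 to 101274795, so it precedes the RefSeq start and not the first GENCODE base. For Nr4a3 the 98 bases that lie before the first GENCODE exon are given, at chr4:48045055-48045152 on the plus strand.
Nr4a1: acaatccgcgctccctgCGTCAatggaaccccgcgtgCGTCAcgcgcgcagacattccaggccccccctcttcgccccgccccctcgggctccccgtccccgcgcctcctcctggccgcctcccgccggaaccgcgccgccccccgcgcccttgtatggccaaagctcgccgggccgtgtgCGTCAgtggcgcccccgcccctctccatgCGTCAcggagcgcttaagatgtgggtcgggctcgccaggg
Nr4a2: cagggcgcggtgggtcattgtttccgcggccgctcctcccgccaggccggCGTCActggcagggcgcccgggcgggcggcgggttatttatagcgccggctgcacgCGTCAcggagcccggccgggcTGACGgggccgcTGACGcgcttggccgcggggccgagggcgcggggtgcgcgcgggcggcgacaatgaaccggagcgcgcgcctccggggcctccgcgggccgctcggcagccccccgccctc
Nr4a3: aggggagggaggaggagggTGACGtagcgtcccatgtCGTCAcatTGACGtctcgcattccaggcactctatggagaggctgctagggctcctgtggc
Nr4a1 and Nr4a2 had 4 half-sites each in 250 bases, and 0.137% of the 32851 promoters in that table had at least 4 in a window of that length. Nr4a3 had 3 half-sites in its shorter stretch, and 0.688% of all promoters had at least 3 in 250 bases. A match describes letters and does not show that a factor is bound in these cells.

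Nr4a1 (chromosome 15, 101254269 to 101274795, plus strand), the member best known from T cell activation and growth factor responses, was the highest of the NR4A genes. It had normalised values of 1856 and 1659 in untreated cells, 2080 and 1367 at 4 h, and 1783 and 2306 at 8 h. Its 4 h pair spanned both untreated values, and a single 8 h library stood highest. The difference was -0.06 (SE 0.21) at 4 h and 0.21 (SE 0.17) at 8 h against untreated cells, and 0.27 (SE 0.21) at 8 h against 4 h. Its intervals ran from -0.54 to 0.42, from -0.18 to 0.60 and from -0.19 to 0.72.

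Nr4a2 (chromosome 2, 57106830 to 57124003, minus strand), which is needed for midbrain dopamine neurons, was low, with normalised values of 89.5 and 42.0 in untreated cells, 63.2 and 89.3 at 4 h, and 66.7 and 149.5 at 8 h. Its groups overlapped throughout, and the 2 libraries of a group differed 2.13-fold in untreated cells and 2.24-fold at 8 h. The difference of 0.70 (SE 0.76) at 8 h against untreated cells had an interval of -1.07 to 2.47 and was 0.12 without the higher 8 h library and 1.27 without the lower one, and at 4 h it was 0.28 (SE 0.76).

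Nr4a3 (chromosome 4, 48045153 to 48086447, plus strand) was the lowest detected early gene, at normalised values of 48.5 and 0 in untreated cells, 66.6 and 71.5 at 4 h, and 32.2 and 119.7 at 8 h. Both 4 h libraries lay above both untreated libraries, while the 8 h libraries lay on either side of the higher untreated one. The fitted difference of 3.17 (SE 1.76) at 4 h and 3.16 (SE 1.94) at 8 h rests on the untreated library at 0, and it shrank to 0.49 and 0.36 when that library was left out, and grew to 5.85 and 5.95 without the other untreated library. The adjusted p in limma-trend was 0.97 at 4 h and 0.89 at 8 h. With a pseudocount of 5 in place of 1 the difference was 2.04 at 4 h and 2.05 at 8 h, with an adjusted p of 0.99 and 0.90 in limma-trend.

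The IER genes are named for their immediate early response and encode small proteins. Ier5, whose product takes part in the heat shock factor response, had the largest difference among the early genes with a mean over 100. Its upstream bases are shown for that reason, 250 bases before the RefSeq start at chr1:155099637-155099886 on the minus strand, with the GC boxes GGGCGG and CCGCCC (the motif on either strand) in capitals.
Ier5: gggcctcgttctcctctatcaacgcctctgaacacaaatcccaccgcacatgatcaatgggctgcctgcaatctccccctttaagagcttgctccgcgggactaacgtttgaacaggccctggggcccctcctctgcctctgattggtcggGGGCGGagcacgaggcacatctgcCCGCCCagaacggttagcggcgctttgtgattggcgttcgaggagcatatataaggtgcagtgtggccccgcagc
The 2 GC boxes lie 99 and 75 bases before the start, and 16.7% of all promoters had at least 2 in 250 bases. GC boxes also occur in the printed bases of Nr4a1, Nr4a2 and Btg2, where they are left unmarked. A link between the boxes and the difference was not tested.

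Ier5 (chromosome 1, 155096361 to 155099636, minus strand) had normalised values of 1285 and 965 in untreated cells, 1781 and 1500 at 4 h, and 1506 and 1365 at 8 h. All 4 treated libraries lay above both untreated libraries. The difference at 4 h against untreated cells was 0.55 (SE 0.20), or 1.47-fold with a 95% interval of 1.07-fold to 2.01-fold, at an unadjusted p of 0.024 and an adjusted p of 0.97 in limma-trend. The 8 h difference from untreated cells was 0.37 (SE 0.19), or 1.29-fold, with an interval of 0.947-fold to 1.76-fold and an adjusted p of 0.89. The untreated libraries differed from each other by 0.41 on the log2 scale. The 4 h difference was 0.34 without the lower untreated library and 0.76 without the higher one, and the 8 h difference was 0.16 and 0.57.

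Ier2 (chromosome 8, 84661331 to 84662852, minus strand) encodes a nuclear protein induced by growth factors. Ier2 had normalised values of 1449 and 1421 in untreated cells, 1261 and 1383 at 4 h, and 1150 and 1259 at 8 h. Both 4 h libraries lay below both untreated ones, and both 8 h libraries below both 4 h ones. The share of all genes with such an order was not counted. The differences were small, -0.12 (SE 0.17) at 4 h and -0.25 (SE 0.16) at 8 h against untreated cells, with an interval at 8 h of -0.61 to 0.11, and their sign turned without the median-of-ratios scaling.

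Ier3 (chromosome 17, 35821684 to 35822923, plus strand), whose product promotes cell survival under stress, had the closest group means of the early genes, with normalised values of 1673 and 1799 in untreated cells, 1699 and 1539 at 4 h, and 1701 and 1755 at 8 h. These gave differences of -0.10 (SE 0.16) at 4 h and -0.0034 (SE 0.14) at 8 h against untreated cells. Its group means spanned 0.10 on the log2 scale, the smallest span among the 9.

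Btg2 encodes an antiproliferative protein, a p53 target as well as an early gene, that recruits the CCR4-NOT deadenylase to RNA. Its upstream bases are shown because they hold a full cAMP response element, TGACGTCA, which joins both half-sites and is in capitals in the 250 bases before the RefSeq start at chr1:134079156-134079405 on the minus strand.
Btg2: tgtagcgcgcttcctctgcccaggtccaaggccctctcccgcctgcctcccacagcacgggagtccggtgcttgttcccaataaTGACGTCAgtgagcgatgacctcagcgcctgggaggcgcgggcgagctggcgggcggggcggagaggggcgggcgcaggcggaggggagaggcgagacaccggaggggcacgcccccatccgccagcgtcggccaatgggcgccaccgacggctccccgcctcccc
The element begins 166 bases before the start, and 1.55% of all promoters had it in 250 bases. Of the 10 early genes 7 had an entry in the promoter table.

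Btg2 (chromosome 1, 134075170 to 134079120, minus strand) had normalised values of 1423 and 1692 in untreated cells, 1463 and 2208 at 4 h, and 1541 and 1170 at 8 h. A single 4 h library stood above all others, and the groups overlapped. The difference was 0.21 (SE 0.21) at 4 h and -0.21 (SE 0.19) at 8 h against untreated cells. Between 8 h and 4 h it was -0.42 (SE 0.22), with an interval of -0.90 to 0.06 and an adjusted p of 0.96 in limma-trend, and -0.12 without the high 4 h library.

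**Figure D2:**
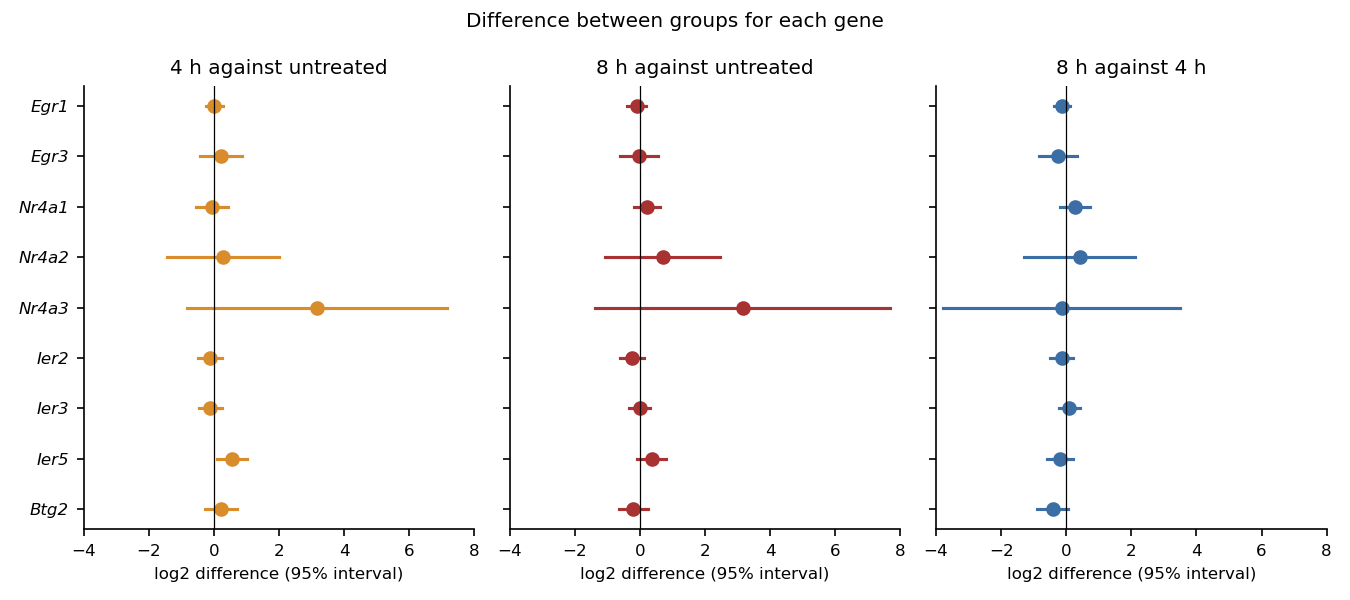
Log2 difference (horizontal axis) with its 95% interval from limma-trend for the 9 detected early genes (rows) at 4 h against untreated cells, 8 h against untreated cells and 8 h against 4 h, on values scaled by median-of-ratios factors. The interval of Ier5 at 4 h, 0.09 to 1.01, is the one that does not include 0, and those of Nr4a2 and Nr4a3 are the widest.

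Groups that did not overlap were counted in the early genes and in all genes tested. At 4 h both libraries lay above both untreated libraries for Nr4a3 and Ier5, 2 of 9, beside 16.3% of all genes tested, and below them for Ier2, 1 of 9, beside 16.1%. At 8 h they lay above both untreated libraries for Ier5 and below for Ier2, 1 of 9 each, beside 17.5% and 16.6% of all genes. For 8 h against 4 h Ier3 lay above, 1 of 9 beside 16.9%, and Egr1 and Ier2 below, 2 of 9 beside 16.3%.

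The level of the early genes relative to each other was set per 1000 exon bases of GENCODE M21. On this scale of normalised value per kilobase the means over 6 libraries were 1504 for Egr1, 1498 for Ier3, 868 for Ier2, 577 for Btg2, 525 for Nr4a1, 428 for Ier5, 123 for Egr3, 20.5 for Nr4a2 and 9.42 for Nr4a3. Neighbours in this order overlapped over the 6 libraries for Egr1 and Ier3, Ier2 and Btg2, Btg2 and Nr4a1, Nr4a1 and Ier5, and Nr4a2 and Nr4a3. The lowest value of Ier3, 1361, lay above the highest of Ier2, 952, and the lowest of Ier5, 295, above the highest of Egr3, 163, which in turn lay with all its values above Nr4a2. The labels name a total RNA kit and the methods of the study a 3′ end kit, and with the latter a level would not depend on length.

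How far 2 libraries of a group lay apart depended on the level of the gene. The median absolute log2 difference between the 2 libraries of a group was 0.97 for the 2520 genes with a mean between 30 and 100, where Nr4a2 and Nr4a3 lie. It was 0.28 for the 3664 genes between 300 and 1000, where Egr3 lies, and 0.17 for the 2473 genes between 1000 and 3000, the range of Nr4a1, Ier2, Ier3, Ier5 and Btg2. Among the genes between 30 and 100, 27.2% had a 0 in at least 1 library, as Nr4a3 did. At 4 h Nr4a1, Btg2 and Egr3 had libraries 0.61, 0.59 and 0.52 apart, each farther than the median of their range, while Ier2 and Ier3 were 0.13 and 0.14 apart.

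**Figure D3:**
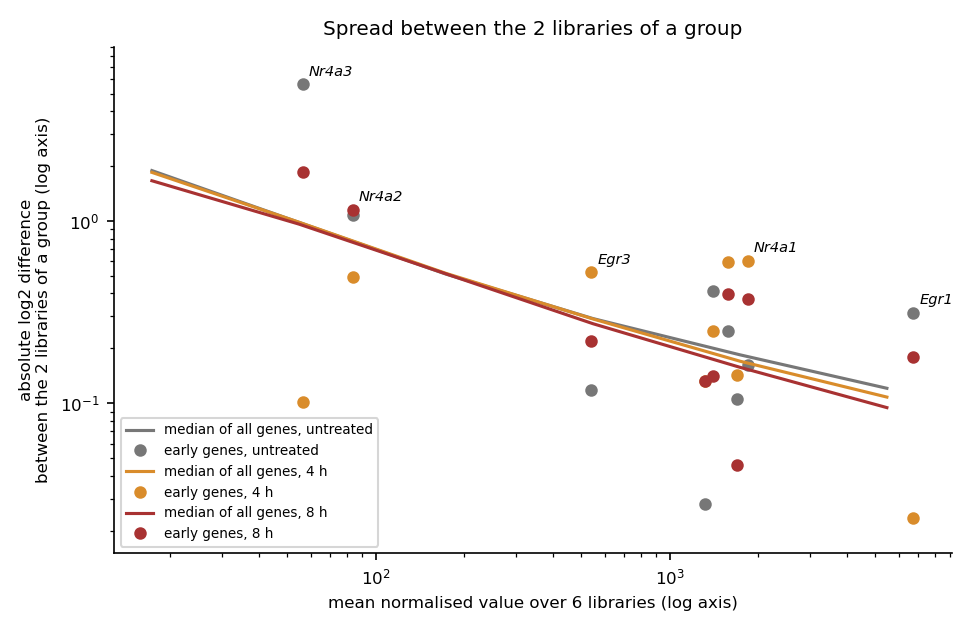
Absolute log2 difference between the 2 libraries of a group (vertical log axis) against the mean normalised value over 6 libraries (horizontal log axis); lines are the medians of all genes in 6 ranges of the mean and points are the 9 early genes, with 5 named. Nr4a3 in untreated cells, 5.63 apart because of a 0, stands highest.

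The size of the differences depended on the scaling. The methods of the study describe spike-in RNA, added by cell number per the labels, and the rebuilt numbers of some libraries have gaps such as scaling before rounding leaves, but which factor they carry was not settled here. When these numbers were compared as rebuilt, with no further scaling, the median of all genes shifted to 0.73 at 4 h and 1.23 at 8 h against untreated cells, and to 0.51 at 8 h against 4 h. All 9 differences from untreated cells were then positive at both times. In the 8 h comparison with untreated cells 5 of 9 passed the test (Egr3, Nr4a1, Nr4a3, Ier3 and Ier5), beside 40.2% of all genes tested called higher. Relative to the shifted median the differences at 8 h were -0.09 for Egr1, -0.02 for Egr3, 0.22 for Nr4a1, -0.24 for Ier2, 0.01 for Ier3, 0.38 for Ier5 and -0.19 for Btg2. At 4 h Ier5 stood 0.57 above the shifted median, the most of the 7 early genes with a mean over 100.

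**Figure D4:**
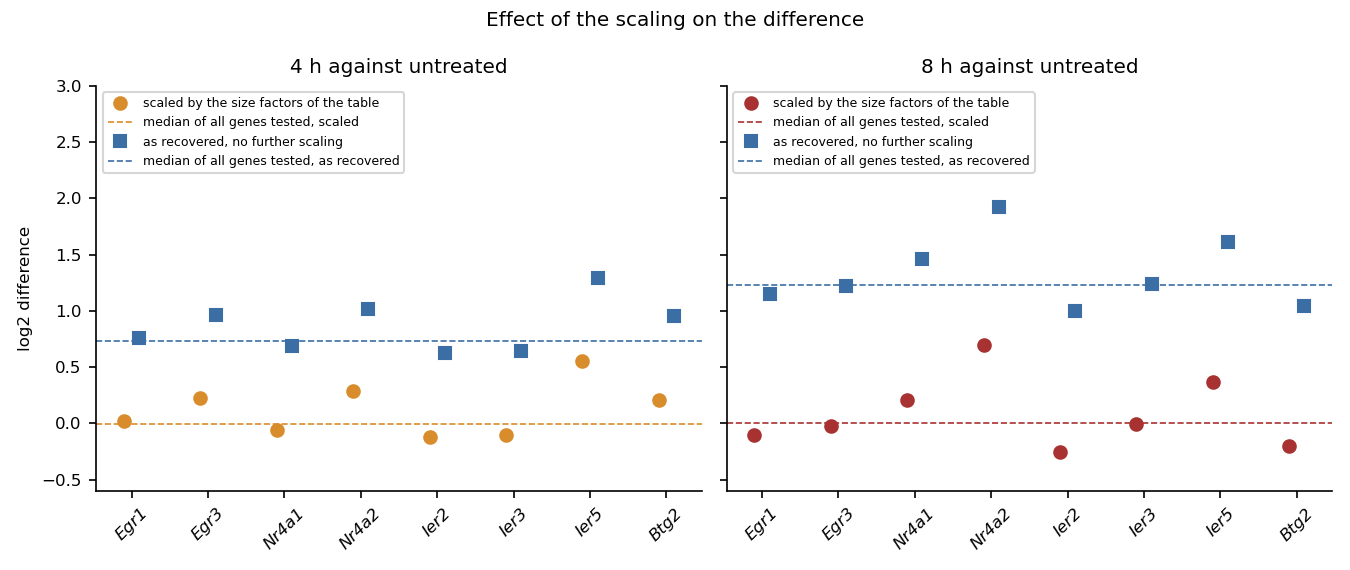
Log2 difference (vertical axis) of 8 early genes at 4 h and at 8 h against untreated cells, on values scaled by the size factors of the table (circles) and on the numbers as rebuilt (squares); dashed lines are the medians of all genes tested. Nr4a3 is left out for its 0. The squares lie around the shifted medians of 0.73 and 1.23 as the circles lie around 0.

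Other early genes and the genes upstream of them were described from lists of known members. Of the 22 other early genes 19 could be tested, and 0 were called in each comparison. Their median difference was 0.02 at 4 h and -0.05 at 8 h against untreated cells, and 0.0053 at 8 h against 4 h. Ccn1 and Ccn2, matricellular targets of SRF and YAP, had authors' means of 19359 and 53113 in the 4 h table. They were left out with all genes of a mean of 10000 or more, and Egr4 was under the filter on low means. The largest positive difference belonged to Plk3, a polo-like kinase of the stress response. Plk3 had normalised values of 55.9 and 52.5 in untreated cells, 123.0 and 140.6 at 4 h, and 157.1 and 110.9 at 8 h. All 4 treated libraries lay above both untreated ones, which enter both comparisons. Such an order was found for 16.3% of all genes tested at 4 h and 17.5% at 8 h. The difference of Plk3 was 1.26 (SE 0.64) at 4 h and 1.27 (SE 0.63) at 8 h, with an adjusted p of 0.97 and 0.89 in limma-trend. Csrnp1, a nuclear protein, followed at 4 h with 0.79 (SE 0.39), and Arc, best known from synapses, at 8 h with 0.94 (SE 0.39). Rgs2, a regulator of G protein signalling, had the largest negative difference of the other early genes at 8 h against untreated cells, -0.38 (SE 0.23). Between 8 h and 4 h Zfp36l2, a factor of RNA decay, stood at 0.70 (SE 0.52) and Arid5a, an RNA-binding protein, at -0.39 (SE 0.62).

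Of the 17 upstream regulators 16 could be tested and 0 were called. Rps6ka4 was listed at 0. The median difference was 0.04 at 4 h and 0.06 at 8 h against untreated cells. Srf, the serum response factor itself, had normalised values of 197.7 and 158.9 in untreated cells, 126.4 and 163.1 at 4 h, and 197.9 and 103.2 at 8 h. Its groups overlapped, with differences of -0.30 (SE 0.47) at 4 h and -0.31 (SE 0.51) at 8 h. Map2k1, a kinase of the growth factor cascade, had normalised values of 3127 and 3083 in untreated cells, 2085 and 2406 at 4 h, and 2064 and 2689 at 8 h. Its treated libraries all lay below both untreated ones, which enter both comparisons. Of all genes tested, 16.1% lay below both at 4 h and 16.6% at 8 h. The difference of Map2k1 was -0.47 (SE 0.13) at 4 h and -0.40 (SE 0.15) at 8 h. Its unadjusted p was 0.0067 and 0.031 and its adjusted p 0.97 and 0.89 in limma-trend. Among listed genes with a mean from 100 up, Crem, a CREB relative, stood highest at 8 h against 4 h, with 0.71 (SE 0.43). Elk4, a ternary complex factor, stood at -0.42 (SE 0.17) in that comparison. Against untreated cells Elk4 stood at 0.47 (SE 0.18) at 4 h and 0.05 (SE 0.18) at 8 h. Elk1 stood at 0.67 (SE 0.28) at 4 h against untreated cells. An unadjusted p under 0.05 in limma-trend was found at 4 h for 3 of 16, beside 519 of 14453 genes. Elk1 and Elk4 lay above untreated cells and Map2k1 below. At 8 h against untreated cells it was found for 2 of 16, Map2k1 and Rps6ka5, beside 678 of 14971 genes. Rps6ka5 stood at 0.73 (SE 0.30) there. For 8 h against 4 h it was found for 1 of 16, Elk4, beside 672 of 15049 genes. Without the median-of-ratios scaling the values of these lists shift upwards by about the medians of all genes given above.

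Of the partners of the early gene products 8 of 8 could be tested and 0 were called. Nab2, a corepressor of EGR factors that is itself an EGR target, had the largest negative difference of both lists at 4 h against untreated cells, -0.80 (SE 0.37), with an adjusted p of 0.97 in limma-trend. It had normalised values of 386.0 and 307.3 in untreated cells, 178.3 and 219.0 at 4 h, and 256.8 and 342.6 at 8 h. Both 4 h libraries lay below both untreated ones, as for 16.1% of all genes tested, and the 8 h libraries overlapped the untreated ones. Prmt1 stood at 0.42 (SE 0.10) at 8 h against untreated cells, with an unadjusted p of 0.0038 and an adjusted p of 0.89 in limma-trend. Its normalised values were 3206 and 3428 in untreated cells and 4441 and 4395 at 8 h. The median of the partners was -0.03 at 4 h and 0.13 at 8 h against untreated cells, beside -0.0032 and 0.0067 for all genes. At 8 h against 4 h it was 0.27 beside 0.0043, with 7 positive and 1 negative.

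**Figure D5:**
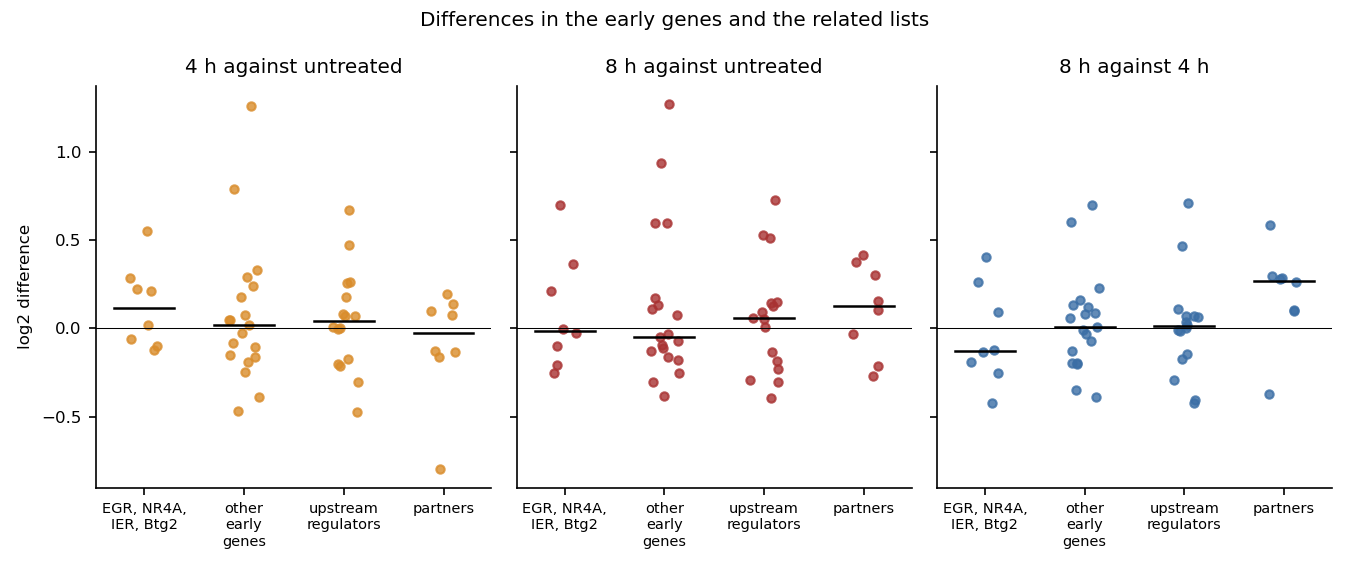
Log2 difference (vertical axis) of single genes at 4 h against untreated cells, 8 h against untreated cells and 8 h against 4 h, for 8 of the early genes (Nr4a3 left out), 19 other early genes, 16 upstream regulators and 8 partners; bars are the medians of the plotted genes. The lists scatter around 0, and Plk3 is the highest point at 4 h and at 8 h against untreated cells.

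The genes with the pattern most like that of the highest EGR, NR4A and IER gene were sought among 9780 other genes with a mean of at least 100, by the root mean square distance of their centred log2 values over the 6 libraries. For Egr1 they were Mpv17, a mitochondrial inner membrane protein gene, at 0.028, and Thoc2l at 0.036. For Nr4a1 they were Hgh1 at 0.033 and Zfp68 at 0.049, and for Ier3 Map1b, a microtubule-associated protein gene, at 0.025 and Ube2d3, a ubiquitin-conjugating enzyme gene, at 0.026. None of these 6 is an early gene of the lists. With 6 libraries and groups that mostly overlap, the likeness includes the differences between the 2 libraries of a group.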

How the data were processed

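Reads were, per the methods of the study, trimmed, aligned with STAR to mm10 and assigned to genes of GENCODE M25 with featureCounts, scaled with ERCC spike-in RNA and compared with a count model; the sources used here do not say whether strand entered the counting. The library kit is a stranded total RNA kit per the labels but a 3′ end kit per the methods. The submitters' processing notes name further tools without versions. The deposited signal is the mean, per gene and comparison, over 4 libraries of numbers divided by size factors. The tables also hold the authors' own log2 fold changes, standard errors, p-values and q-values, as do the separate lists of significant genes; these were not used. The files have 0 unused columns of single samples.

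Each deposited mean is a sum of 4 whole numbers times a step per library. Steps were read from low means and the 6 numbers of a gene solved in both tables at once. Of 23783 genes above 0, 23608 had 1 solution, 84 none and 91 several. Genes low in both tables had equal numbers for 1 pair of libraries in 5350 of 5350 cases (next best pair 2298), which marks the untreated pair. Between 0 and 22 of the whole numbers from 1 to 60 were used by no gene in a library, so the numbers were not treated as counts and no count model is reported. Tested on simulated data, 100% of 22915 genes were rebuilt exactly. Genes with a mean of 10000 or more were left out, which kept 23531.

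Differences were tested with limma 3.58.1 (limma-trend) in R 4.3.3 on log2(value + 1) with the table's own factors, leaving out genes with a mean under 10, with p-values adjusted after Benjamini and Hochberg and a threshold of 0.05. Differences are on this scale, where those of low genes depend on the added 1 and on any library at 0. For Nr4a3 at 4 h the difference was 3.17, beside group means of 69.0 at 4 h and 24.2 in untreated cells. 8 h against 4 h was fitted on all 6 libraries with 1 median-of-ratios scaling, which also gives the values printed. All 10 early genes are named. Of the lists, called genes, the 2 largest differences each way at means from 100 up, and Srf are named. So are the 2 genes most like 1 gene per family. Elk1, Rps6ka5 and Prmt1 are named outside this rule, each with an unadjusted p under 0.05 in limma-trend. Other pseudocounts, filters, scalings, weights and leaving out each library were tried. The early genes and lists were chosen with earlier results of these data known.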

Additional observations from a re-analysis of the deposited data

How the results depend on the processing

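The absence of calls held under pseudocounts of 0.5 and 5, without a filter on low means, with a minimum mean of 100, with libraries scaled to the same sum, with voom weights, with robust eBayes and with other sets of libraries in the fit: 0 early genes, 0 list genes and 0 of all genes tested were called, also when each library was left out in turn. The 1 setting that changed it was the use of the rebuilt numbers with no further scaling. For 8 h against untreated cells it called 5 of 9 early genes, 11 of 19 other early genes, 17 of 24 upstream and partner genes and 6026 of 14971 genes (6022 higher, 4 lower), and at 8 h against 4 h 1 gene of 15049, beside 0 of each after scaling. With it, the log2 difference at 4 h against untreated cells became 0.68 for Nr4a1, 0.62 for Ier2 and 0.64 for Ier3, around a median of all genes of 0.73. The 8 h difference from untreated cells became 1.15 for Egr1, 1.22 for Egr3, 0.99 for Ier2, 1.24 for Ier3 and 1.04 for Btg2, around a median of 1.23. The difference between 8 h and 4 h became 0.39 for Egr1, 0.25 for Egr3, 0.36 for Nr4a3, 0.37 for Ier2, 0.32 for Ier5 and 0.088 for Btg2, around a median of 0.51. These changes follow from the shift that the scaling takes out. The voom weights turned Nr4a3 at 8 h against 4 h to 0.032, and the cause was not tested.

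Leaving out each library in turn gave log2 differences at 4 h against untreated cells of -0.14 to 0.18 for Egr1, -0.036 to 0.48 for Egr3, -0.36 to 0.25 for Nr4a1, -0.25 to 0.82 for Nr4a2 and -0.083 to 0.51 for Btg2. For 8 h against untreated cells it gave -0.26 to 0.054 for Egr1, -0.14 to 0.085 for Egr3, 0.026 to 0.40 for Nr4a1, 0.12 to 1.27 for Nr4a2, -0.058 to 0.052 for Ier3, 0.16 to 0.57 for Ier5 and -0.40 to -0.0067 for Btg2. For 8 h against 4 h it gave -0.51 to 0.0095 for Egr3, -0.037 to 0.57 for Nr4a1, -0.17 to 0.98 for Nr4a2 and -1.08 to 0.79 for Nr4a3. The direction of Nr4a3, Ier2 and Ier5 at both times against untreated cells was kept when any 1 library was left out. Where 1 library was left out, the lone sample of its group is assumed to vary like the others. No paired analysis was possible because the columns carry no replicate number. With a mean of at least 100, Nr4a2 and Nr4a3 were not tested. Their low values, with a 0 among the untreated libraries for Nr4a3, limit what these data can show for them.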
